A study of Mus musculus with 2 samples.

Results

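The fibrillar collagens described here are 7 genes, Col1a1, Col1a2, Col3a1, Col5a1, Col5a2, Col5a3 and Col11a1, chosen by their symbol among the 32285 genes of the count tables. The tables came from 2 single-cell libraries of cells without surface CD45, the leukocyte antigen, sorted from vein grafts of C57BL6/J mice aged 10 to 12 weeks. One library was from conventional vein grafts and one from No-Touch vein grafts, a label that in bypass surgery names a vein taken with its surrounding tissue left on. Grafts were digested with papain, collagenase and dispase, and live nucleated cells were sorted and captured with a 10x Genomics kit that reads the 3′ ends of transcripts and counts molecules by unique molecular identifiers (UMIs). The number of mice behind each library and the time after grafting are not given in the sources used here. With 1 library per group there was no replicate check, so no p-value is given: intervals cover counting error at the 95% level and not the difference between animals.

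Fibrillar collagens are the rope-like proteins that give connective tissue its tensile strength. Each is a triple helix of chains made inside the cell, modified by hydroxylases, escorted out by chaperones, trimmed of its end propeptides and crosslinked into fibrils. In the vessel wall type I and type III collagens form the bulk of the fibrils, while the less abundant type V and type XI collagens start fibrils and limit their width, and fibroblasts of the outer layer are known as a main source.

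Col1a1 lies on chromosome 11 (94936224 to 94953042, plus strand of mm10) and Col1a2 on chromosome 6 (4504814 to 4541544, plus strand). Col3a1 (45311538 to 45349706, plus strand) and Col5a2 (45374321 to 45503282, minus strand) are neighbours on chromosome 1, with 24614 bp between their 3′ ends. Col5a1 lies on chromosome 2 (27886425 to 28039514, plus strand), Col5a3 on chromosome 9 (20770050 to 20815067, minus strand) and Col11a1 on chromosome 3 (114030540 to 114220718, plus strand). The promoter table matched 5 of the 7 genes. The 250 bases before the start of Col3a1, the most abundant chain, and of Col5a3 and Col11a1, whose pattern over cell classes departed most from it, are shown from RefSeq (GRCm38.p6), 5′ to 3′ on the gene's strand. Capitals mark each match to the CCAAT box, the GGGCGG box of Sp1-type factors or the TATAAA box, searched on both strands, so that a CCAAT match on the opposite strand reads ATTGG here and a GGGCGG match reads CCGCCC. The windows are chr1:45311288-45311537 (plus strand), chr9:20815068-20815317 (minus strand) and chr3:114030290-114030539 (plus strand).
Col3a1: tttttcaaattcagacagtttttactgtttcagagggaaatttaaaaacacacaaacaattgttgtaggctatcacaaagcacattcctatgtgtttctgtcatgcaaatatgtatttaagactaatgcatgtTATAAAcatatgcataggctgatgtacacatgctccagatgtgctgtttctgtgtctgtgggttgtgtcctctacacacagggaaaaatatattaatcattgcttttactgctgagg
Col5a3: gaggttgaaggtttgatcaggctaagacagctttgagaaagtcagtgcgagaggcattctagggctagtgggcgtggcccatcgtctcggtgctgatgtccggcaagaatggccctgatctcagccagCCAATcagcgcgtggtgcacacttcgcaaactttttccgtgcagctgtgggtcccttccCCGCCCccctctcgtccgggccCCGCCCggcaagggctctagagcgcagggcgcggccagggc
Col11a1: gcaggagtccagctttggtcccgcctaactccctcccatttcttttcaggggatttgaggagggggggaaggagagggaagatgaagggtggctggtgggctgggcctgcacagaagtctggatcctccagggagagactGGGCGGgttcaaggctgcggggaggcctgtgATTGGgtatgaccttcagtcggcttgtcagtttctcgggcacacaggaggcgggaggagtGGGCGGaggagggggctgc
The Col3a1 window held TATAAA, 117 bases before the start, and neither of the other motifs, and 35.2% of its bases were G or C. The Col5a3 window held CCAAT and 2 copies of GGGCGG on the opposite strand, and the Col11a1 window held CCAAT on the opposite strand and 2 copies of GGGCGG. Of the windows not shown, that of Col1a2 held CCAAT and 2 copies of GGGCGG and that of Col5a1 held 2 copies of GGGCGG. The Col1a2 window (chr6:4505368-4505617) lies inside the gene span given above, whose start comes from GENCODE and not from RefSeq. Of 32851 promoter windows of this length, 33.8% held CCAAT, 32.7% GGGCGG and 12.4% TATAAA on either strand, and the median G and C content was 52.4%. These matches describe the letters only.

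After filters on genes, UMIs and mitochondrial share, 10458 cells of the conventional and 11525 of the No-Touch library remained, with medians of 16778.5 and 28472 UMIs per cell, and 18 barcodes occurred in both. Cells were gated by markers that include no collagen. A class needed 3 of 8 markers and a lead of 2 over every other class. Fibroblast-like cells numbered 6820 and 9096 (65.2% and 78.9% of the cells), Schwann-like 150 and 218, blood endothelial-like 800 and 381, lymphatic endothelial-like 280 and 235, epithelial-like 157 and 27, and neutrophil-like 188 and 31. Mural-like cells numbered 899 and 469, of which 121 and 157 were smooth muscle-like, 306 and 154 pericyte-like and the rest not split. A gate is a range of a marker score and not a cell type: 3.20% and 2.33% of fibroblast-like cells sat at its limit, against 23.5% and 23.7% of mural-like and 23.3% and 32.1% of Schwann-like cells. The median fibroblast-like cell carried 7 and 8 of the 8 fibroblast markers in the 2 libraries, and the median cell of the other classes compared carried 1 or 2.

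Type I and type III collagen mRNA made up most of the fibrillar collagen of both libraries, and in fibroblast-like cells the level of 6 of the 7 chains was at least 1.5 times higher in the No-Touch library. Levels are given as counts-per-million (CPM), the UMIs of a gene in a class scaled by all UMIs of that class and library. Summed over the 7 chains, 2.04% of all UMIs of fibroblast-like cells in the conventional library and 3.54% in the No-Touch library were fibrillar collagen. No chain was 1.5 times lower. Over the 8455 genes with at least 10 CPM in either library, 7.2% were higher and 3.37% lower by that measure, and the median log2 ratio was 0.05, against 0.77 for the 7 chains.

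Col3a1, the chain of type III collagen, had the highest level, 8150 CPM (conventional) against 15319.9 (No-Touch), a ratio of 1.88. Col1a2 stood at 6447 and 10002 (ratio 1.55) and Col1a1 at 4489 and 7957 (ratio 1.77), and together they encode type I collagen, the main fibril protein of most tissues. Counting intervals of these ratios were narrower than 0.01 on either side. At equal depth of 3000 UMIs per cell, between 96.6% and 99.98% of fibroblast-like cells had a UMI of each of these chains in either library. In epithelial-like cells, not known as a source, that share was 33.3% and 63.0% for Col1a1, 45.8% and 77.8% for Col1a2 and 60.1% and 88.9% for Col3a1. The fibroblast-like shares, so near their ceiling, cannot show a difference between the libraries.

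The type V chains were 1 order of magnitude less abundant. Col5a2 stood at 714 and 1109 CPM (ratio 1.55, 1.54 to 1.56) and Col5a1, the chain that most type V molecules share, at 346 and 645 (ratio 1.86, 1.85 to 1.88). Col5a3, the remaining type V chain, of narrower distribution, stood at 224 and 383 (ratio 1.71, 1.69 to 1.73). Each of the 3 was higher in the No-Touch library. The share of cells with a Col5a3 UMI was 72.3% and 86.7% as counted and 30.6% and 40.7% at 3000 UMIs per cell. Epithelial-like cells, not known as a source of this chain, had a Col5a3 UMI in 5.88% and 11.1% of cells at 3000 UMIs.

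Col11a1, a chain of the cartilage-associated type XI collagen, departed from the others. It stood at 16.5 CPM (15.8 to 17.1) in cells of conventional grafts against 15.7 (15.2 to 16.1) in those of No-Touch grafts, which is a ratio of 0.951 (0.907 to 0.998). It was detected in 3.61% and 3.68% of fibroblast-like cells at 3000 UMIs, and the 10% of cells with most of it held 92.9% and 89.0% of its UMIs. At so few UMIs per cell both measures depend on sampling, and they do not give the share of cells that express the gene. The ratio of 0.951 is over the whole class, and the ratios in the groups inside it are given below.

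**Figure D1:**
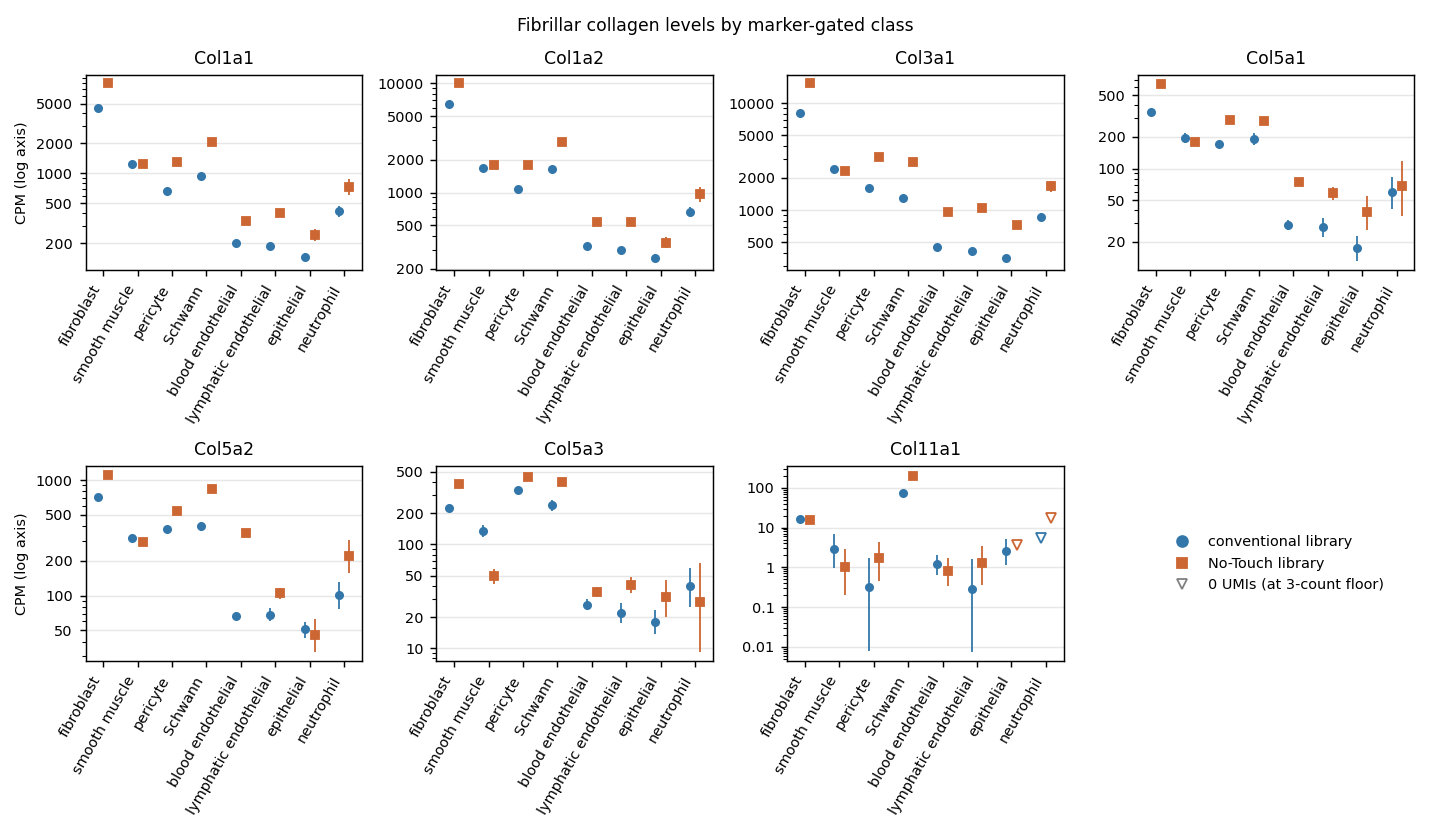
Level of each chain in CPM (log axis) in 8 marker-gated classes, with circles for the conventional and squares for the No-Touch library, bars for the 95% counting interval and open triangles for 0 UMIs drawn at the level of 3 counts. Of the classes drawn, fibroblast-like cells were highest for 5 of the 7 chains, pericyte-like cells for Col5a3 and Schwann-like cells for Col11a1. The groups inside the fibroblast-like class are not drawn.

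Inside the fibroblast-like class, cells were also gated by 3 sets of 6 markers that mark adventitial progenitors (Pi16 set), inflammatory fibroblasts (Saa3 set) and matrix-producing fibroblasts (Postn set). The makeup of the class differed between the libraries: the Pi16 set held 206 and 871 cells, the Saa3 set 3005 and 1145, the Postn set 177 and 1128, and 3432 and 5952 cells passed no set's gate. The Postn set had the highest fibrillar collagen, with 32053 and 48205 CPM summed over the 7 chains, and the Saa3 set the lowest, with 15425 and 25132. The set richest in collagen thus held more cells in the No-Touch library and the set poorest in it fewer. The Pi16 set, nearly as poor at 17227 and 25422 CPM, also held more cells there. By the median per cell in the No-Touch library, the Pi16 set was the poorest (18406 CPM, against 19001 in the Saa3 set). The ratio over the class (1.74 for the summed chains) was above the ratio inside each set, which was 1.48 in the Pi16 set, 1.63 in the Saa3 set, 1.5 in the Postn set and 1.51 in cells of no set.

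Fewer chains passed 1.5 times inside the sets than over the class. Col1a2 and Col5a2, which passed over the class, did so in no set and not in the cells of no set. Their ratios there lay between 1.35 and 1.42 for Col1a2 and between 1.26 and 1.45 for Col5a2. In the Pi16 set 3 chains were higher (8.82% of all genes tested) and none lower (4.94%): Col1a1 from 2908 to 4667, Col5a1 from 268 to 464 and Col5a3 from 203 to 315 CPM. In the Saa3 set 3 were higher (6.94%) and none lower (4.0%): Col1a1 from 3362 to 5670, Col3a1 from 5970 to 11157 and Col5a1 from 248 to 384, while Col5a3 stood at 152 and 159. In the Postn set 2 were higher (10.3%), Col3a1 from 11615 to 18804 and Col5a3 from 350 to 630. In that set Col11a1 was lower (8.6% of all genes), from 77.6 to 42.0 (ratio 0.540, 0.489 to 0.598, a log2 ratio of -0.87). With a lead of 3 markers in place of 2, which left 20 conventional and 367 No-Touch cells in the Postn set, that log2 ratio was 0.49. In cells of no set 3 were higher (6.4%) and none lower (3.89%), namely Col1a1, Col3a1 and Col5a1. Col11a1 in these cells stood at 18.9 and 12.7 CPM (ratio 0.673, 0.632 to 0.716), short of 1.5 times lower. It was under the filter in the Saa3 set (8.20 and 5.75, ratio 0.702, 0.593 to 0.827) and in the Pi16 set (1.64 and 2.30, ratio 1.40, 0.644 to 3.62). The median log2 ratio of the chains that passed the filter lay between 0.47 and 0.60 in the 4 groups of cells, and that of all genes between 0.01 and 0.03.

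The spread from cell to cell was wide. The 7 chains summed to a median of 12603 CPM per fibroblast-like cell for conventional and 26828 for No-Touch grafts, the cell at the 10th percentile held 4283 and 9496, and the cell at the 90th percentile 38413 and 60321. The ranges of the libraries overlapped over most of their width. Across fibroblast-like cells at 3000 UMIs, Col1a1 followed Col1a2 closely (Spearman rho 0.83 and 0.88) and Col3a1 (0.72 and 0.79). Col5a3 followed Col1a1 weakly (0.19 and 0.26). These coefficients are over cells of 1 library each, which share depth and free RNA, and are given as a description.

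**Figure D2:**
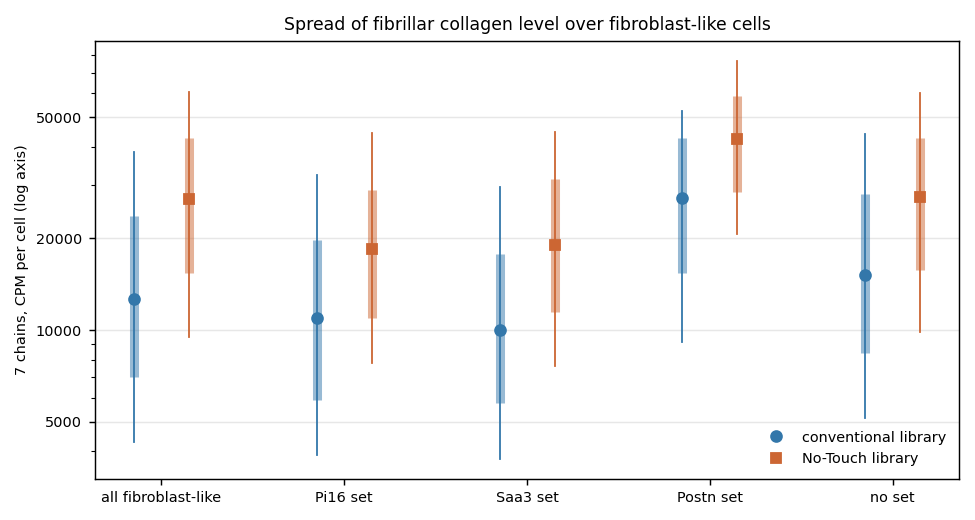
Sum of the 7 chains per cell in CPM (log axis) over all fibroblast-like cells and the 4 groups inside them, with markers for the median, thick bars for the 25th to 75th and thin lines for the 10th to 90th percentile. The median was higher in the No-Touch library in each of the 5 groups drawn, and the Postn set lay highest in both libraries.

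Smooth muscle-like cells, the contractile cells of the vessel wall, did not show the difference seen in fibroblast-like cells. Col3a1 stood at 2440 and 2324 CPM, Col1a2 at 1673 and 1773 and Col1a1 at 1234 and 1237. Col5a2 stood at 317 and 293 and Col5a1 at 194 and 179. The ratios of these 5 chains lay between 0.925 and 1.06, and no chain was higher (16.7% of all genes tested were). Col5a3 was the 1 chain that was lower (13.3% of all genes were), at 136 CPM (119 to 154, 231 UMIs) in cells of conventional grafts against 49.6 (41.9 to 58.2, 150 UMIs) in those of No-Touch grafts, which is a ratio of 0.365 (0.295 to 0.450). The summed level of the 6 pericyte markers in these cells moved with it, from 2920 to 1642 CPM with none of the 6 at 0, while the 6 smooth muscle markers summed to 4836 and 4888. The part of pericyte RNA in this result was not tested. With the neutrophil-like level subtracted 4 chains were lower, and with the epithelial-like UMIs per cell subtracted or without the filter on low values 2 were.

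Pericyte-like cells, which wrap small vessels, had the highest Col5a3 of the classes compared, 337 CPM (317 to 357) for conventional against 442 (415 to 469) for No-Touch grafts, which is a ratio of 1.31 (1.20 to 1.43). The Postn set inside the fibroblast-like class stood at 350 in the conventional library, within the pericyte-like interval, and at 630 in the No-Touch library, above it. In pericyte-like cells 4 chains were higher (11.9% of all genes tested) and none lower (5.06%). Col1a1 went from 664 to 1299, Col3a1 from 1613 to 3142, Col1a2 from 1081 to 1771 and Col5a1 from 173 to 287 CPM. Col5a2, at 378 and 538, stayed under 1.5 times. Over all mural-like cells, most of which in the conventional library were not split, no chain was higher (11.1% of all genes) or lower (5.76%), while 1 was higher with a marker present at 1 UMI, with a lead of 3 markers or with a mean over cells. The fibroblast markers summed to 1101 and 995 CPM in pericyte-like and 1305 and 1450 in smooth muscle-like cells, with none of the 8 at 0, and their part in these values was not tested.

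Schwann-like cells, the glia of peripheral nerve, carried all 7 chains, and 6 of them had a higher No-Touch level (as had 14.8% of all genes tested) and none a lower one (8.92%). Col1a2 was the most abundant, at 1646 and 2898 CPM, though in the No-Touch library Col3a1 was close to it. Col3a1 stood at 1311 and 2845 and Col1a1 at 945 and 2070. Of the type V chains, Col5a2 went from 399 to 837 and Col5a3 from 239 to 397, and Col5a1, at 191 and 286, had a ratio of 1.49 (1.28 to 1.74). Other markers moved with the chains in these cells: the 8 fibroblast markers summed to 694 and 1016 CPM, the 6 markers of the Postn set to 1225 and 2152 and the 8 Schwann markers to 9365 and 6963, with none at 0. Their part in the result was not tested.

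Of the classes compared, Schwann-like cells had the highest Col11a1 in both libraries. It stood at 72.6 CPM (58.4 to 89.1, 91 UMIs) for conventional against 194 (176 to 213, 442 UMIs) for No-Touch grafts, which is a ratio of 2.67 (2.12 to 3.38). The Postn set inside the fibroblast-like class stood at 77.6 in the conventional library, within the Schwann-like interval, and at 42.0 in the No-Touch library. A Col11a1 UMI was found in 23.3% and 38.1% of Schwann-like cells as counted, and in 15.4% and 22.5% at 3000 UMIs, where 14 and 31 shallower cells were left out. In epithelial-like cells, which have no known use for it, the share at 3000 UMIs was 0.654% and 0. The median depth of Schwann-like cells was 7832 and 9518 UMIs and that of epithelial-like cells 18130 and 19688. The 10% of Schwann-like cells richest in Col11a1 held 67.0% and 71.5% of its UMIs.

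Blood endothelial-like cells, which line the vessels, had low levels of the 3 abundant chains and 1 large difference, in Col5a2. Col5a2 stood at 67.3 CPM (62.7 to 72.2) for conventional against 348 (335 to 360) for No-Touch grafts, which is a ratio of 5.16 (4.77 to 5.60). The 10% of cells richest in it held 52.2% and 62.5% of its UMIs. In cells with at least 2 UMIs of the secreted factor Cytl1, a split chosen after the values were seen, Col5a2 stood at 301 (14 cells) and 1024 (55 cells), and in the remaining 786 and 326 cells at 63.1 and 212. The difference between the libraries was thus present in both kinds of cell. In all, 5 chains were higher in blood endothelial-like cells (12.3% of all genes tested) and none lower (6.34%), with Col1a1 at 199 and 334, Col1a2 at 326 and 535, Col3a1 at 453 and 969 and Col5a1 at 28.8 and 74.8. With the level of neutrophil-like cells of the same library subtracted, 1 chain was counted as higher in place of 5. That level was itself above the blood endothelial-like one for Col1a1 (419 and 732 CPM), Col1a2 (664 and 963) and Col3a1 (866 and 1678). These chains were thus set to 0 in both libraries, so the setting could not show whether they differed. The 8 mural markers also moved in blood endothelial-like cells, from 431 to 831 CPM with none at 0. The 6 pericyte markers went from 104 to 31.3, and the 6 smooth muscle markers stood at 54.8 and 54.0. The part of mural RNA in the result was not tested.

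Lymphatic endothelial-like cells had all 6 chains that passed the filter higher (9.49% of all genes tested) and none lower (7.77%), from Col3a1 at 417 and 1046 CPM to Col5a3 at 22.1 and 40.6. Both endothelial classes were close to the level of cells that are not known to make these chains. Col1a1 amounted to 2.90 and 7.45 UMIs per cell in blood endothelial-like, 2.33 and 5.18 in lymphatic endothelial-like and 2.87 and 7.22 in epithelial-like cells. In CPM, Col3a1 in epithelial-like cells stood at 354 and 721 (ratio 2.04, 1.84 to 2.25) and Col1a1 at 145 and 242 (ratio 1.66, 1.40 to 1.97). The fibroblast markers summed to 843 and 1685 CPM in blood endothelial-like, 936 and 990 in lymphatic endothelial-like and 658 and 752 in epithelial-like cells, with none of the 8 at 0. The epithelial-like reference itself differed between the libraries. Its 8 mural markers summed to 238 and 1068.5 CPM and its 6 smooth muscle markers to 56.2 and 320, and their part was not tested. After the UMIs per cell of epithelial-like cells were subtracted, no chain was counted as higher in lymphatic endothelial-like cells (1 with the neutrophil-like level subtracted). Levels under the one subtracted were set to 0, as for Col1a1 of lymphatic endothelial-like cells in both libraries, so such chains could not be counted. In blood endothelial-like cells the log2 ratio of Col5a2 was 8.17 after the subtraction of epithelial-like UMIs per cell. Its conventional level was set to 0 there, so the size of this value depends on the added 1 and does not measure a fold difference. Col5a2 amounted to 1.01 and 1.37 UMIs per cell in epithelial-like cells and to 0.980 and 7.76 in blood endothelial-like cells, so in the conventional library it did not stand above that level.

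**Figure D3:**
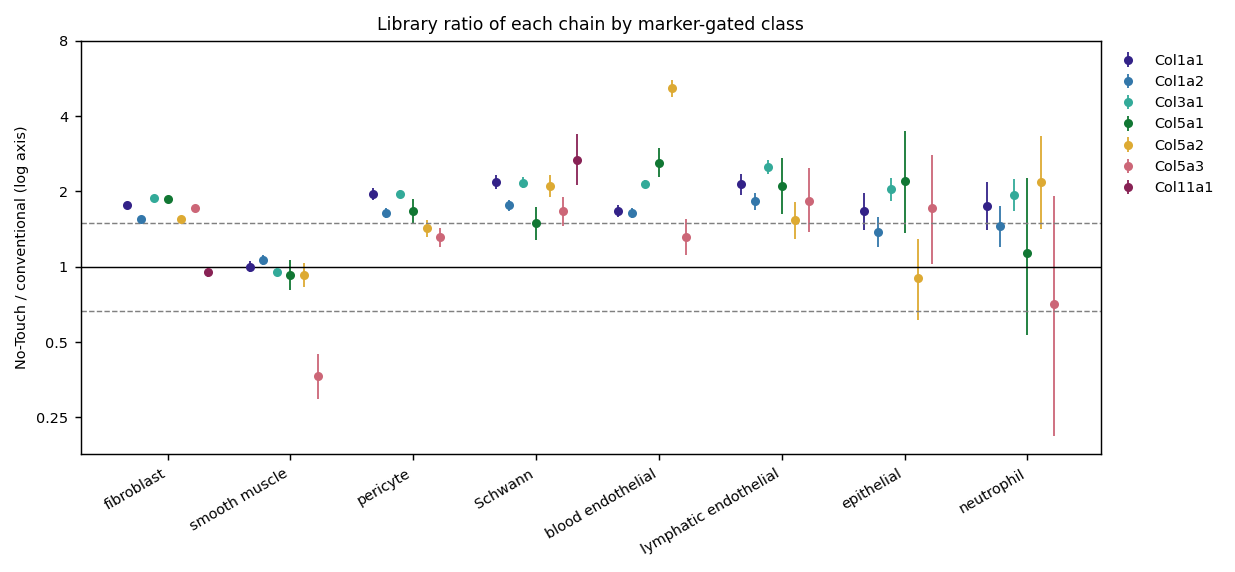
Ratio of each chain's CPM, No-Touch over conventional (log axis), in 8 marker-gated classes, with bars for the 95% counting interval, a solid line at 1 and dashed lines at 1.5 times higher and lower. Chains under 10 CPM in both libraries or with at most 3 UMIs in a library are left out. Col5a3 in smooth muscle-like cells lay lowest (0.365) and Col5a2 in blood endothelial-like cells highest (5.16).

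Ratios between chains inside a class do not depend on the depth of the library. They compare numbers of captured 3′ ends, for which the length of a transcript does not enter, though capture can differ between genes. Col1a1 had fewer UMIs than Col1a2 in every class drawn, although the type I collagen protein holds more of the Col1a1 chain. The Col1a1/Col1a2 ratio in fibroblast-like cells was 0.696 (0.694 to 0.698) in the conventional and 0.796 (0.794 to 0.797) in the No-Touch library. It was 0.574 and 0.714 in Schwann-like, 0.614 and 0.734 in pericyte-like and 0.737 and 0.697 in smooth muscle-like cells, so smooth muscle-like cells moved the other way, with intervals that overlapped (0.697 to 0.780 and 0.669 to 0.727).

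Of the classes drawn, the Col3a1/Col1a1 ratio was lowest in Schwann-like cells, at 1.39 (1.29 to 1.5) and 1.37 (1.32 to 1.43). It was 1.82 and 1.93 in fibroblast-like, 1.98 and 1.88 in smooth muscle-like and 2.43 and 2.42 in pericyte-like cells. Among the fibroblast sets the Pi16 set had the highest ratio, 2.91 and 2.71, and the Postn set the lowest, 1.46 and 1.59. For these 2 sets the order was the same in both libraries and the intervals were at most 0.12 wide. The Postn set lay within the Schwann-like interval in the conventional library and above it in the No-Touch library.

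The type V chains stood in different proportions by class. Col5a3 outnumbered Col5a1 in pericyte-like cells (1.95 and 1.54) and Schwann-like cells (1.25 and 1.39) and was outnumbered in fibroblast-like cells (0.648 and 0.595). In smooth muscle-like cells the ratio was 0.700 (0.589 to 0.831) in the conventional and 0.276 (0.229 to 0.332) in the No-Touch library. Col5a1/Col5a2 was 0.484 and 0.581 in fibroblast-like and 0.427 and 0.215 in blood endothelial-like cells. Col11a1/Col5a1 in fibroblast-like cells was 0.0476 (0.0458 to 0.0496) and 0.0243 (0.0236 to 0.0250), the 1 pair of 6 whose ratio differed by 1.5 times between the libraries in that class, and in Schwann-like cells it was 0.379 and 0.678. Together the type V and type XI chains made up 6.38% and 6.08% of the fibrillar collagen of fibroblast-like cells, 20.9% and 17.0% of that of pericyte-like cells and 18.8% and 18.0% of that of Schwann-like cells.

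Between the libraries, 3 of 5 pairs that passed the filter differed by 1.5 times in blood endothelial-like cells, 1 of 5 in smooth muscle-like, 1 of 6 in Schwann-like and none of 5 in pericyte-like and in lymphatic endothelial-like cells. Outside fibroblast-like cells these counts depended on the processing. In blood endothelial-like cells the count was 1 with a marker present at 1 UMI or with a mean over cells, and 0 with the neutrophil-like level or the epithelial-like UMIs per cell subtracted, and in Schwann-like cells it lay between 0 and 3. Each of these subtractions set some chains of blood endothelial-like cells to 0 in a library, so their pairs had no ratio to compare.

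**Figure D4:**
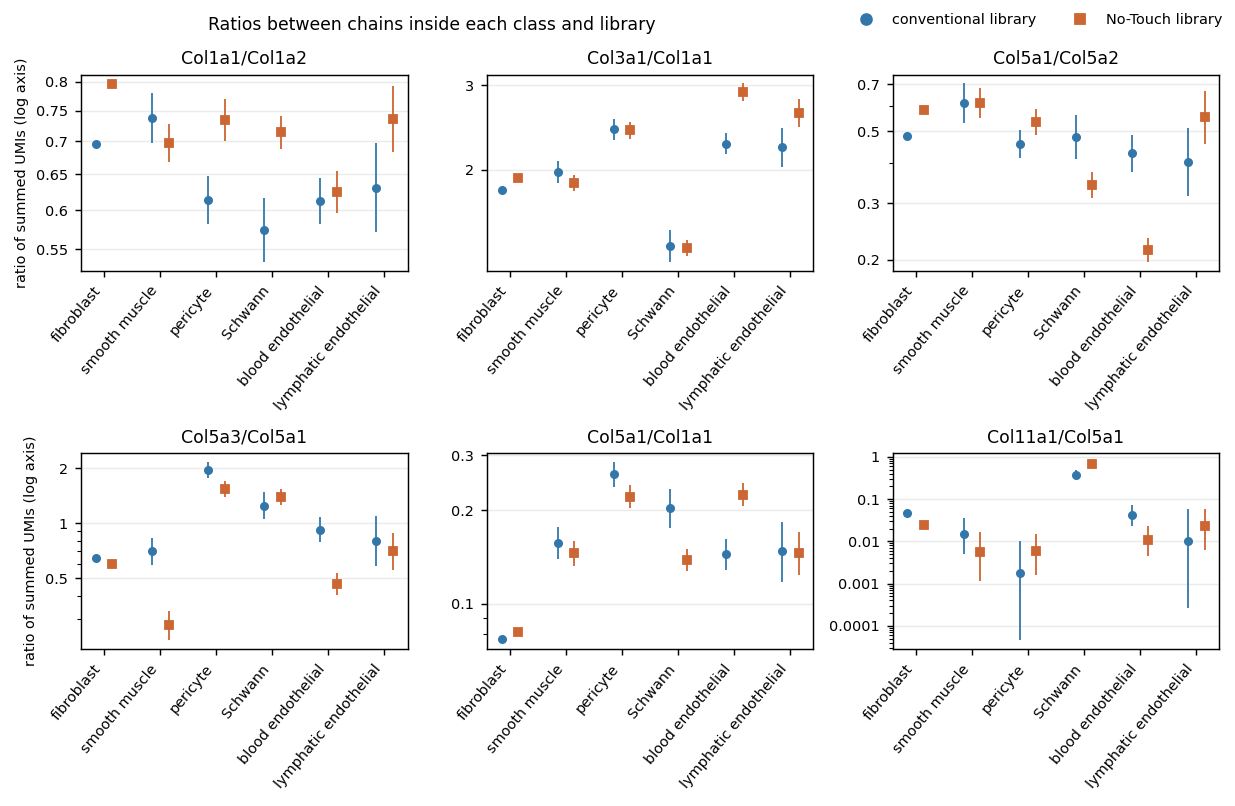
Ratio of summed UMIs of 2 chains (log axis) for 6 pairs in 6 marker-gated classes, with circles for the conventional and squares for the No-Touch library and bars for the 95% counting interval. Schwann-like cells lay lowest in Col3a1/Col1a1 and highest in Col11a1/Col5a1, and pericyte-like cells highest in Col5a3/Col5a1.

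The order of classes by level depended on the chain and in part on the library. Fibroblast-like cells led for Col1a1, Col1a2, Col3a1, Col5a1 and Col5a2 in both libraries, with intervals apart from the next class. Behind them in the conventional library came smooth muscle-like cells for Col1a1 (1234, then Schwann-like at 945) and for Col3a1 (2440, then pericyte-like at 1613). In the No-Touch library Schwann-like cells were second for Col1a1 (2070), and pericyte-like (1299) and smooth muscle-like cells (1237) had overlapping intervals. For Col5a1 in the conventional library, smooth muscle-like (194), Schwann-like (191) and pericyte-like cells (173) had overlapping intervals. For Col5a3, pericyte-like cells were apart from Schwann-like cells (239) in the conventional library, while in the No-Touch library pericyte-like (442), Schwann-like (397) and fibroblast-like cells (383) overlapped one with the next. For Col11a1, Schwann-like cells were first and fibroblast-like cells second in both libraries, and every other class compared was under 3 CPM.

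Other genes of collagen synthesis and turnover were followed through 65 genes in 8 lists, chosen for their textbook roles. Of these, 54 passed the filter in fibroblast-like cells, where 6 (11.1%) were at least 1.5 times higher and 2 (3.70%) lower, beside 7.2% and 3.37% of all genes tested. The median log2 ratio was 0.29 for the genes of hydroxylation and glycosylation and 0.34 for those of folding and export, beside 0.05 for all genes and 0.77 for the 7 chains. Of the other fibrillar chains 1 of 4 passed, Col27a1, at 55.3 and 57.0 CPM. Among 13 genes of hydroxylation and glycosylation 1 was higher, the prolyl 3-hydroxylase family member P3h3 (95.6 and 150), and none was lower. In the same list Crtap (66.0 and 96.6) and the isomerase Ppib (534 and 778) stayed just under 1.5 times. Among 9 genes of folding and export 1 was higher, the chaperone Fkbp14 (26.2 and 44.0), while Fkbp10 (82.5 and 114) and the coat protein Sec24d (63.3 and 86.8) were not.

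Of 5 genes of propeptide removal 2 were higher, the procollagen protease Adamts14 (5.64 and 14.8) and Pcolce (427 and 646), which enhances removal of the C-terminal propeptide, while its relative Pcolce2 stood at 98.9 and 75.4. Of 4 crosslinking enzymes 1 was higher, Loxl2 (174 and 348), while Lox stood at 303 and 255 and Loxl3 at 49.0 and 52.8. None of 8 fibril-binding genes passed 1.5 times on (CPM + 1). Fmod, which controls fibril width, was at that limit: it stood at 85.0 and 56.4, a ratio of 0.663 (0.648 to 0.678) without the added 1, which is past 1.5 times lower. In the same list Thbs2 stood at 180 and 269 and Fn1 at 2308 and 3143. Dcn and Lum in this list are also markers of the fibroblast gate. None of 5 collagen receptor genes passed either, with the integrin chain Itgb1 at 278 and 386, Itga1 at 44.1 and 34.1 and the receptor kinase Ddr2 at 225 and 179.

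Of 9 genes of collagen breakdown and uptake 1 was higher and 2 lower. The collagenase Mmp13 was at 87.0 and 11.3 CPM, and Timp1, an inhibitor of such enzymes, at 1100 and 653. Fap, a surface protease that cuts collagen fragments, was at 57.9 and 91.3. In blood endothelial-like cells 17 of 49 genes of the 8 lists were higher (34.7%, beside 12.3% of all genes) and 2 lower (4.08%, beside 6.34%). In smooth muscle-like cells 6 of 55 were higher (10.9%, beside 16.7%) and 16 lower (29.1%, beside 13.3%). The gap for higher genes in the first of these classes and for lower genes in the second exceeded every gap in the classes that follow. In Schwann-like cells 9 of 50 were higher (18.0%, beside 14.8%) and 3 lower (6.0%, beside 8.92%). In lymphatic endothelial-like cells 7 of 45 were higher (15.6%, beside 9.49%) and 1 lower (2.22%, beside 7.77%). In pericyte-like cells 4 of 54 were higher (7.41%, beside 11.9%) and 4 lower (7.41%, beside 5.06%).

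**Figure D5:**
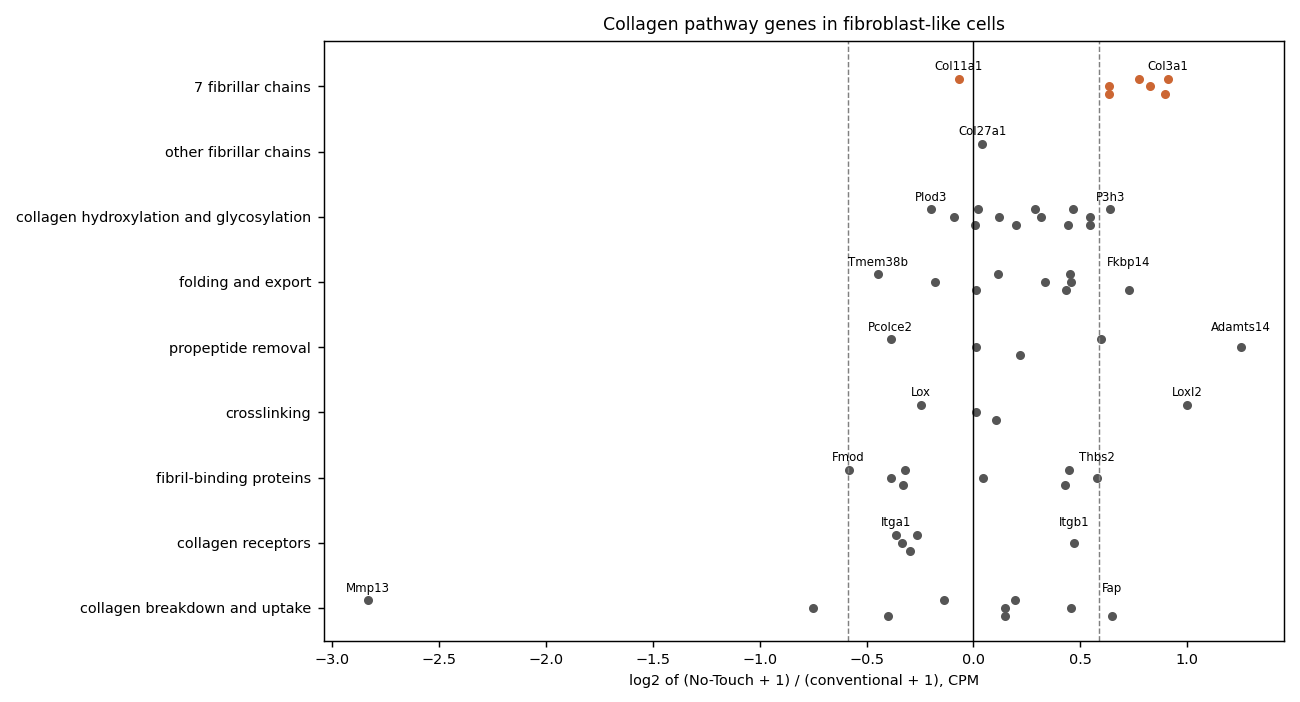
Log2 ratio of (CPM + 1), No-Touch over conventional, in fibroblast-like cells for the 7 chains and for the genes of 8 lists that had at least 10 CPM in either library, 1 point per gene, with dashed lines at 1.5 times. The lowest and highest gene of each row are named, and 6 of the 7 chains lie right of the upper dashed line.

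The genes most like each chain were found by Pearson correlation of log2(CPM + 1) over 19 sums, 1 for each class in each library, among 7268 genes. These sums share libraries, depth and free RNA, so the coefficients are descriptions. Nearest to Col1a1 and Col1a2 was Ugdh, an enzyme of the sugar precursors of matrix polysaccharides (0.95 and 0.96). Nearest to Col3a1 was Mfap2, a microfibril protein (0.96), to Col5a1 the collagen VI chain Col6a1 (0.94) and to Col5a2 the collagen-binding protein Sparc (0.90). Col5a3 was nearest to Thbs2 (0.95) and Has2, a hyaluronan synthase (0.94), and Col11a1 to Sfrp5, a secreted Wnt antagonist (0.92), and Pex5l (0.91). Among the chains themselves Col1a1 and Col1a2 were closest (0.99). Col5a3 and Col11a1 stood apart from Col1a1 (0.64 and 0.60).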

How the data were processed

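Single-cell counts of 2 libraries, 1 per group, were analysed. The deposited values are whole UMI counts per gene and cell barcode, made by the authors with Cell Ranger (version 3.1.0 with mm10 per the submitters' processing notes, 6.0.0 per the file headers); whether the 10x kit was v2 or v3, and the use of strand in counting, are not given in the sources used here. The deposited files held 11899 barcodes with 200851272 UMIs (conventional) and 12450 with 373319906 (No-Touch). Barcodes under 500 genes or 1000 UMIs, or with a mitochondrial share above 10%, were dropped. In a cell a marker counted as present with at least 2 UMIs and 1 per 10000. Cells with markers of 2 classes stayed ungated, which removes some doublets. Scrublet's automatic threshold marked 2.26% of conventional and 0% of No-Touch cells and was not used, and removal of the highest 8% of scores was an alternative. UMIs were summed per class and library and scaled to counts-per-million (CPM), with exact Poisson (Garwood) intervals. Ratios of libraries or chains carry exact binomial (Clopper-Pearson) intervals at 95%. UMI duplicates were collapsed upstream, so intervals and the floor of 3 counts cover counting error only. A gene was counted as higher or lower at 1.5 times on (CPM + 1), with at least 10 CPM in either library. Shares of cells were taken after thinning to 3000 UMIs. All 7 chains are named, with up to 3 genes per list by largest absolute log2 ratio in fibroblast-like cells and the genes nearest each chain by correlation. The members and lists were chosen with earlier results of these data known. Alternatives varied the gates, filters, scaling, pseudocount (0.1), thinning (5000 UMIs), doublets and free RNA, the last by subtracting the level of neutrophil-like or epithelial-like cells. Positions are from GENCODE for mm10, and promoters from RefSeq. Computations used numpy 2.4.6, scipy 1.17.1, pandas 2.3.3, scanpy 1.11.5 and matplotlib 3.10.9.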

Additional observations from a re-analysis of the deposited data

Results flagged for a closer look

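Col5a3 was at least 1.5 times higher in some classes and at least 1.5 times lower in another under the same comparison of libraries. Its log2 ratio, No-Touch over conventional, was 0.77 in fibroblast-like, 0.85 in lymphatic endothelial-like and 0.73 in Schwann-like cells, and -1.44 in smooth muscle-like cells. In lymphatic endothelial-like cells Col5a3 stood at 22.1 and 40.6 CPM, near the epithelial-like level of 18.1 and 31.0. In smooth muscle-like cells the 6 pericyte markers summed to 2920 and 1642 CPM, and their part was not tested. With 1 library per group the difference between classes was not tested.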

How the results depend on the processing

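No paired analysis was possible because each group is 1 library. Counts of chains at 1.5 times and of chain ratios 1.5 times apart were recomputed under 13 alternatives, of which the 2 that subtract epithelial-like cells were chosen after seeing the data. Of 273 such counts, 242 stayed within 1.5 times and 31 moved. In fibroblast-like cells the 6 chains kept their sign in 78 of 78 alternative values and stayed past 1.5 times in 77. Scaling by the median ratio shifted log2 values by at most 0.09.

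With a marker present at 1 UMI, the count of higher chains in mural-like cells was 1 (0 as reported), and the count of chain ratios apart was 0 in mural-like (1 as reported) and 1 in blood endothelial-like cells (3 as reported). With a lead of 3 markers, mural-like cells had 1 higher chain and 0 ratios apart, lymphatic endothelial-like cells 1 ratio (0 as reported) and Schwann-like cells 2 (1 as reported). With a mean over cells, mural-like cells had 1 higher chain and blood endothelial-like cells 1 ratio apart. At a mitochondrial limit of 5% Schwann-like cells had 3 ratios apart, and at 5000 UMIs per cell 0, when lymphatic endothelial-like cells had 1. Without the filter on low values, smooth muscle-like cells had 2 lower chains and 2 ratios apart (1 and 1 as reported), and pericyte-like and lymphatic endothelial-like cells 1 ratio each (0 as reported).

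With the neutrophil-like level subtracted, higher chains were 1 in blood endothelial-like (5 as reported) and 1 in lymphatic endothelial-like cells (6 as reported), lower chains were 4 in smooth muscle-like cells, and ratios apart were 2 in mural-like, 3 in smooth muscle-like, 1 in pericyte-like, 0 in blood endothelial-like and 2 in Schwann-like cells. Levels below the subtracted one were set to 0, so this setting could not count differences in endothelial-like chains under the neutrophil-like level. With the epithelial-like level subtracted, ratios apart were 2 in lymphatic endothelial-like and 3 in Schwann-like cells. With the epithelial-like UMIs per cell subtracted, smooth muscle-like cells had 2 lower chains, lymphatic endothelial-like cells 0 higher, and ratios apart were 0 in mural-like, 0 in blood endothelial-like and 3 in Schwann-like cells. The log2 ratio of Col11a1 in the Postn set reversed from -0.87 to 0.49 with a lead of 3 markers, which left 20 conventional and 367 No-Touch cells. Apart from levels set to 0, the cause of each other change was not tested.

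Neutrophil-like cells had medians of 2632 and 4425 UMIs, and the No-Touch references are 31 neutrophil-like and 27 epithelial-like cells. Levels of Col11a1 outside fibroblast-like and Schwann-like cells rest on at most 16 UMIs per library and class, which does not resolve a difference at this depth.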
